A study of Mus musculus with 18 samples.

Results

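The genes described here encode the sialyl-, fucosyl- and galactosyltransferases of the Golgi together with the N-acetylgalactosaminyltransferases named like them. They were taken from the gene table by symbol alone: all rows whose symbol begins with St6gal, Galnt, B3gal or B4gal, or with St3gal, St8sia or Fut and a digit. This gave 67 of the 22298 rows, with 66 distinct symbols because St6galnac2 stands on 2 rows. The symbol rule also takes in the Galnt, B3galnt and B4galnt genes, whose enzymes transfer N-acetylgalactosamine and not galactose. RNA was sequenced from whole testis of adult C57BL/6 mice, 3 libraries with the wild-type Taf7l gene and 3 with a knock-in allele of it. Taf7l is X-linked and encodes a relative, found mainly in germ cells, of the TFIID subunit Taf7. The title of the series concerns a missense mutation of this gene, and the labels do not describe the edited position, the method of editing or the number of mouse lines. The labels do not tie libraries to animals. The p-values therefore describe the spread over the libraries at hand, and this spread may be partly technical.

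Glycosyltransferases of the Golgi build sugar chains one residue at a time, each adding a given sugar from a nucleotide donor in a given linkage. Galnt enzymes start mucin-type O-glycans on serine or threonine, galactosyltransferases extend N-glycans, O-glycans and glycolipids, and fucosyl- and sialyltransferases mostly add the branches and caps. In the testis these chains are known from the acrosome, a Golgi-derived vesicle of the spermatid, from the complex gangliosides and fucosylated glycolipids of germ cells, and from the sperm surface.

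All 67 rows held at least 1 count, and 58 passed the filter on low counts and were tested. The 9 that were not tested were St6galnac5 with 14 counts over the 6 libraries, B3galt5 with 12, B3galt2 with 7, Fut1, Fut7 and St6gal2 with 4 each, Fut9 and St6galnac1 with 3 each, and Galnt5 with 2. Depth ran from 17431309 to 21446420 gene counts per library, and the transferase rows together took 0.144% to 0.154% of them. Taf7l itself had 507, 551 and 531 counts in wild-type and 472, 525 and 581 in knock-in libraries (log2 fold change -0.11 ± 0.08 SE; edgeR, adjusted p = 0.632). The counts do not show the edited position, so this value checks no label. Germ cell markers dominated every library, with summed FPKM from 15912 to 18749 for 10 elongating spermatid genes against 4.13 to 16.6 for 10 epididymis genes, 4 of which were at 0 throughout. Wild-type library 2 and knock-in library 1 stood apart in part of this list. They held 225 and 173 counts of Crisp1, a secreted protein of the epididymis, against 1 to 3 in the other 4 libraries. For Adam7 these were 41 and 37 against 0, and for Cuzd1 243 and 169 against 55 to 73. Rnase10, the most abundant of the list, did not follow, with 180, 168 and 137 counts in wild-type and 124, 120 and 120 in knock-in libraries. Defb20 and Cst11, with 12 and 2 counts in all, did not follow either. Calls are therefore given with and without these 2 libraries. In whole tissue, fewer cells of a type and less RNA per cell cannot be told apart.

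Between the genotypes 2 of the 58 tested transferase genes passed the test, at an adjusted p under 0.05 over all genes. A row of St6galnac2, a sialyltransferase of O-glycans, rose 1.66-fold in the knock-in, and St3gal2, a sialyltransferase of gangliosides and O-glycans, fell and was 3.14-fold lower. The other 56 did not pass. That is 3.45% of the tested transferase genes against 0.982% of all 15787 tested genes, 155 in number, and the members' share rests on 2 genes. By direction the table held 0.88% called higher and 0.101% called lower. DESeq2 also called these 2 rows and no further member, where it called 2.89% of all tested genes. The median log2 fold change was 0.02, with 30 genes above 0 and 28 below, and over all tested genes the median was 0.00. In 13 of the 58 transferase genes, 22.4%, the CPM of all knock-in libraries lay on one side of the wild type, as in 18.5% of all tested genes. The knock-in was the higher in 7 of them, against a background of 10.1%, and the lower in 6, against 8.41%. An unadjusted p under 0.05 was found for 8 of the 58, 13.8%, against 12.9% of all tested genes. For 33 of the 58, 56.9%, the 95% interval of the fold change lay within 1.5-fold in either direction, against 67.7% of all tested genes. A fit without both libraries that held Crisp1 was chosen after seeing the data and kept 2 libraries a group. In it edgeR called 0 transferase genes and 30 of all tested genes. There 9 transferase genes, 15.5%, had an unadjusted p under 0.05, against 13.0% of all tested genes. The shares without overlap and with a low unadjusted p in all 6 libraries were thus near those of the whole table.

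**Figure D1:**
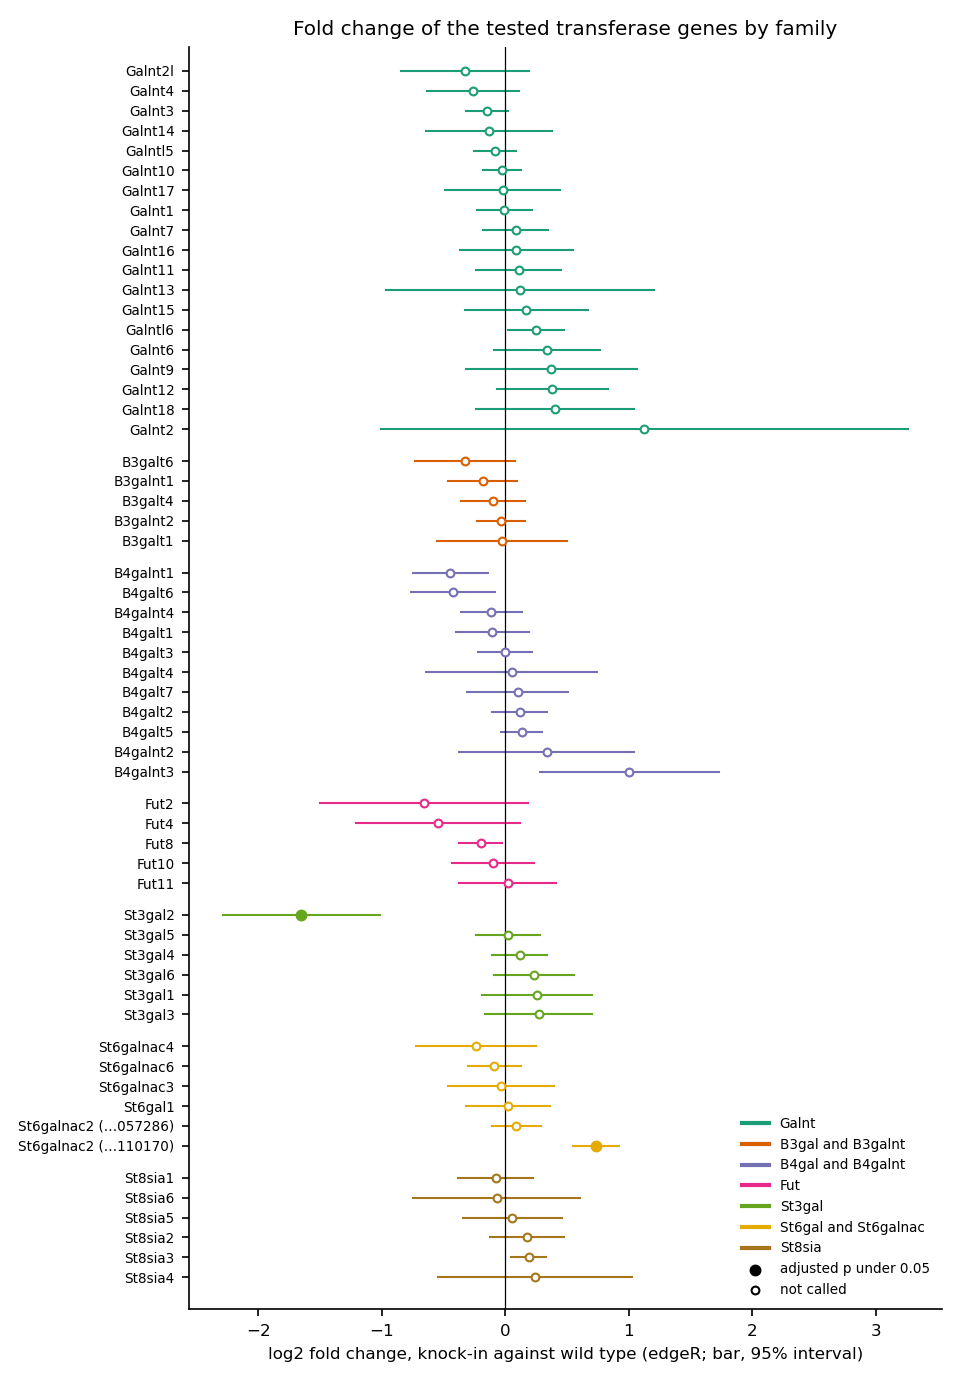
Fold change of each of the 58 tested transferase genes, knock-in against wild type, on a log2 axis, with its 95% interval from edgeR, grouped and coloured by family. Filled points passed at an adjusted p under 0.05: St3gal2 at -1.65 and the St6galnac2 row at 0.73, while 52 of the 58 lie within 0.5 of 0.

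Sialyltransferases of the St6gal and St6galnac kind add sialic acid in alpha-2,6 linkage, to galactose or to N-acetylgalactosamine. St6galnac2 acts on the N-acetylgalactosamine at the root of O-glycans. RefSeq places it at chr11:116676703-116695782 (GRCm38.p6), and the table lists it on rows ENSMUSG00000110170 and ENSMUSG00000057286. This position was matched by symbol, and none was found for ENSMUSG00000110170 by its own identifier. The first row held 1806, 1548 and 1423 counts in wild-type and 2538, 2726 and 3272 in knock-in libraries, and its FPKM were 44.19, 38.52 and 37.49 against 62.76, 66.28 and 70.09. Every knock-in library lay above every wild-type library. In TMM-scaled CPM the row was at 87.0 ± 10.02 in wild-type and 145 ± 7.92 in knock-in libraries (SD over 3 libraries each). Its log2 fold change was 0.73 ± 0.08 (SE, 95% interval 0.55 to 0.92, edgeR adjusted p = 0.00844). The call was kept in each of 15 alternative fits, including the 6 that left out 1 library, where the log2 fold change ran from 0.68 to 0.83. Without both libraries that held Crisp1 the log2 fold change was 0.71 ± 0.11 (SE) and the adjusted p 0.0504 (edgeR).

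The second St6galnac2 row, ENSMUSG00000057286, had far fewer counts, 357, 373 and 342 in wild-type and 377, 386 and 460 in knock-in libraries. Its log2 fold change was 0.09 ± 0.09 (edgeR, adjusted p = 0.747), with an interval of -0.11 to 0.29 that lies below that of the first row. Scaled to depth its knock-in libraries all lay slightly above the wild type, 20.8 ± 0.843 against 19.5 ± 0.132 CPM. In FPKM its groups overlapped. How reads that fit both rows were counted is not given in the sources used here, so the split between them is uncertain. With both rows summed the level was 107 ± 9.99 CPM in wild-type and 166 ± 8.65 in knock-in libraries, and the log2 fold change was 0.64 ± 0.08 (edgeR, adjusted p = 0.00968). A noncoding transcript listed under the same symbol, ENSMUST00000135771, held 32, 47 and 55 counts in wild-type and 66, 75 and 87 in knock-in libraries. Its libraries did not overlap either, but it did not pass (log2 0.67 ± 0.25 SE; edgeR, adjusted p = 0.462), and it is named after its values were seen. Neighbours were taken from the position of the symbol. The nearest coding gene on the lower side, Prcd, lies 8313 bp away and had a log2 fold change of 0.11 ± 0.23 (edgeR, adjusted p = 0.898). On the higher side the nearest coding gene is a member of the same family, St6galnac1, 69242 bp away, with 3 counts in all. Snhg16, a noncoding host gene of small nucleolar RNAs 904 bp away, had 14 transcripts in the noncoding table, of which 4 were tested and 0 called.

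**Figure D2:**
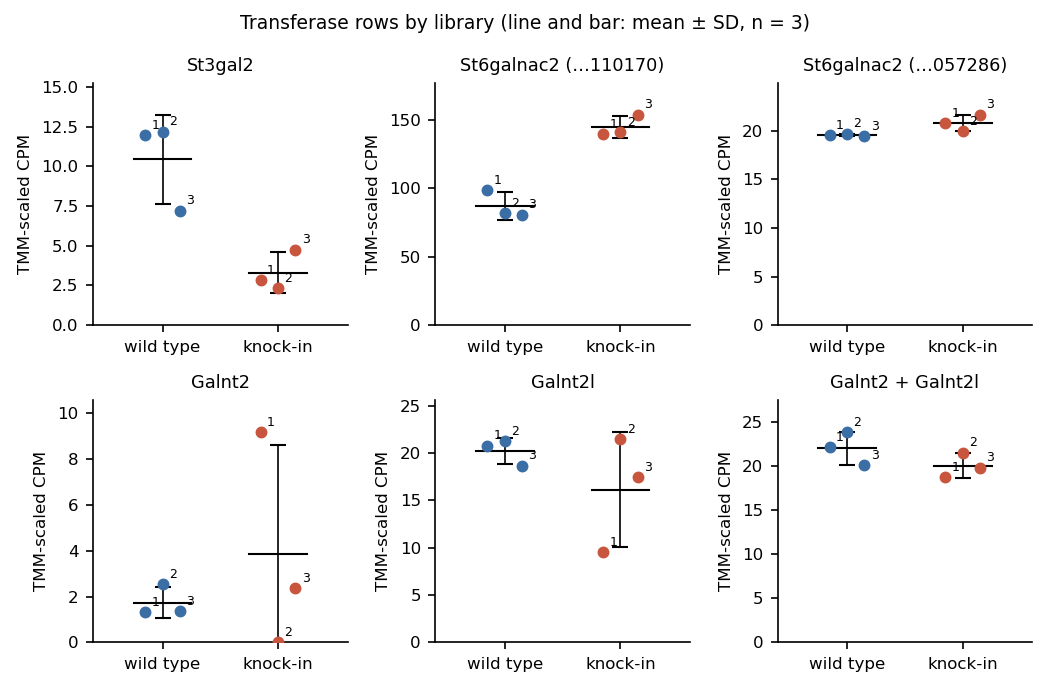
TMM-scaled CPM of 6 rows or sums of rows in each of the 3 wild-type and 3 knock-in libraries, with a line at the mean, a bar for the SD and the replicate number beside each point. The knock-in libraries lie apart from the wild type for St3gal2 and for the St6galnac2 row ENSMUSG00000110170. For the row ENSMUSG00000057286 they lie only slightly above it, at 19.95 to 21.6 against 19.4 to 19.7 CPM. Galnt2 and Galnt2l scatter in the knock-in, while the 6 libraries of their sum lie between 18.7 and 23.8 CPM.

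None of the other members of this family passed. St6galnac6, which acts on gangliosides, had 8.56 ± 1.28 FPKM in wild-type and 7.72 ± 0.530 in knock-in libraries (log2 fold change -0.09 ± 0.10 SE). St6gal1, the main alpha-2,6-sialyltransferase of N-glycans, had 363, 487 and 335 counts against 329, 494 and 469, and the libraries overlapped (0.03 ± 0.15). St6galnac3 and St6galnac4, of gangliosides and O-glycans, had -0.03 ± 0.19 and -0.24 ± 0.22. Of the 9 rows 6 were tested, 1 was called higher and 0 lower, with log2 fold changes from -0.24 to 0.73. The family's summed FPKM ran from 57.2 to 63.0 in wild-type and from 80.7 to 89.3 in knock-in libraries. Of these sums the called row, its most abundant, alone held 37.5 to 44.2 and 62.8 to 70.1. The other tested rows had log2 fold changes from -0.24 to 0.09.

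St3gal enzymes add sialic acid to galactose in alpha-2,3 linkage. St3gal2 caps the galactose of core 1 O-glycans and of gangliosides, and it lies at chr8:110919743-110974058 (GRCm38.p6, RefSeq). The wild-type libraries held 219, 231 and 127 counts of it and the knock-in libraries 52, 45 and 101. In CPM these were 11.95, 12.2 and 7.21 against 2.86, 2.33 and 4.75. The groups did not overlap, although wild-type library 3 and knock-in library 3 came closest to each other. The level was 10.5 ± 2.81 CPM in wild-type and 3.31 ± 1.27 in knock-in libraries (SD over 3 libraries each), and the log2 fold change was -1.65 ± 0.28 (SE, 95% interval -2.28 to -1.02; edgeR, adjusted p = 0.0301). FPKM values were 2.95, 2.62 and 2.19 against 0.77, 0.81 and 1.12. The call was kept without wild-type library 3 (edgeR, adjusted p = 0.0433) or knock-in library 3 (0.0486). It was lost when library 1 or 2 of the wild type (0.0899 and 0.115) or library 1 or 2 of the knock-in (0.0815 and 0.0599) was left out, with log2 fold changes from -2.01 to -1.45 over the 6 such fits. It was kept in 10 of the 15 alternatives in all. Without both libraries that held Crisp1 the log2 fold change was -1.43 ± 0.35 (SE; edgeR, adjusted p = 0.164). The authors' deposited table gives it an adjusted p of 2.00e-06 and the St6galnac2 row 6.29e-12. No other of the 67 rows is under 0.05 in the authors' deposited table, where 2.0% of all rows are.

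Neither neighbouring coding gene of St3gal2 passed the test. Ddx19a, an RNA helicase gene 932 bp away, had 165, 212 and 176 counts in wild-type and 179, 223 and 198 in knock-in libraries (log2 fold change 0.02 ± 0.14 SE; edgeR, adjusted p = 0.970). Fcsk, which encodes the kinase that salvages fucose and lies 17254 bp away on the other side, had a log2 fold change of -0.07 ± 0.11. A noncoding transcript of St3gal2, ENSMUST00000141464, held 5, 3 and 6 counts in wild-type and 2, 1 and 2 in knock-in libraries, too few to be tested. The length implied by the deposited counts and FPKM of St3gal2 ran from 2940 to 4754 bp between libraries, against 2167 to 2178 bp for the called St6galnac2 row. The authors' FPKM of St3gal2 are thus not a fixed multiple of its counts.

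The other 5 St3gal genes had log2 fold changes above 0, and none of them passed. St3gal5, which makes the ganglioside GM3, held 12.22, 14.53 and 12.11 FPKM in wild-type and 10.9, 14.09 and 14.25 in knock-in libraries, and the groups overlapped (log2 fold change 0.02 ± 0.12 SE, 95% interval -0.23 to 0.28). St3gal4, which caps N-glycans and glycolipids, had 10.7 ± 0.688 FPKM in wild-type and 10.7 ± 1.04 in knock-in libraries (0.12 ± 0.10). St3gal6, of similar acceptors, had 4.27, 4.94 and 4.62 FPKM against 6.19, 5.25 and 6.25, with every knock-in library higher, and did not pass (0.23 ± 0.14; edgeR, adjusted p = 0.559). St3gal1 and St3gal3, which can act on the same ganglioside or O-glycan acceptors as St3gal2, had 0.26 ± 0.20 and 0.27 ± 0.19.

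St8sia enzymes add sialic acid to sialic acid. St8sia3, which acts on glycolipids and on short sialic acid chains of glycoproteins, was the most abundant of the 6. It held 997, 1014 and 969 counts in wild-type and 1102, 1225 and 1319 in knock-in libraries, and in CPM every knock-in library lay above the wild type (54.3 ± 0.777 against 62.0 ± 1.36, SD, n = 3 each). The difference was small and did not pass (log2 fold change 0.19 ± 0.06 SE; edgeR, adjusted p = 0.230). In FPKM the St8sia3 groups overlapped. St8sia2, which makes polysialic acid on the neural cell adhesion molecule, had 5.42 ± 1.10 FPKM in wild-type and 5.82 ± 1.06 in knock-in libraries (0.18 ± 0.13). St8sia1, which makes the ganglioside GD3, had 1.86 ± 0.381 and 1.93 ± 0.600 FPKM (-0.08 ± 0.14). St8sia5, which extends gangliosides, had 0.06 ± 0.18, St8sia4, the other polysialic acid enzyme, 0.24 ± 0.35, and St8sia6 -0.07 ± 0.30. None of the 6 was called, and the log2 fold changes had a median of 0.12, with 4 above 0 and 2 below.

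Galnt genes held the highest levels of the whole set. Galntl5, a testis-specific member known for its part in normal sperm function, had 146.85, 148.82 and 148.35 FPKM in wild-type and 152.15, 129.23 and 135.55 in knock-in libraries. Galnt3, whose loss in mice impairs acrosome formation, had 67.04, 70.32 and 76.31 against 67.19, 59.95 and 60.69. In both the groups overlapped, with log2 fold changes of -0.08 ± 0.08 and -0.15 ± 0.08 (SE; edgeR, adjusted p = 0.727 and 0.455). Galntl5 alone made up 24.7% to 28.8% of the summed FPKM of all 67 rows, Galnt3 11.5% to 14.4% and the called St6galnac2 row 7.10% to 13.4%. On this per-length scale 11 rows lay at or above 10 FPKM over the 6 libraries, 31 from 1 to under 10 and 25 under 1.

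**Figure D3:**
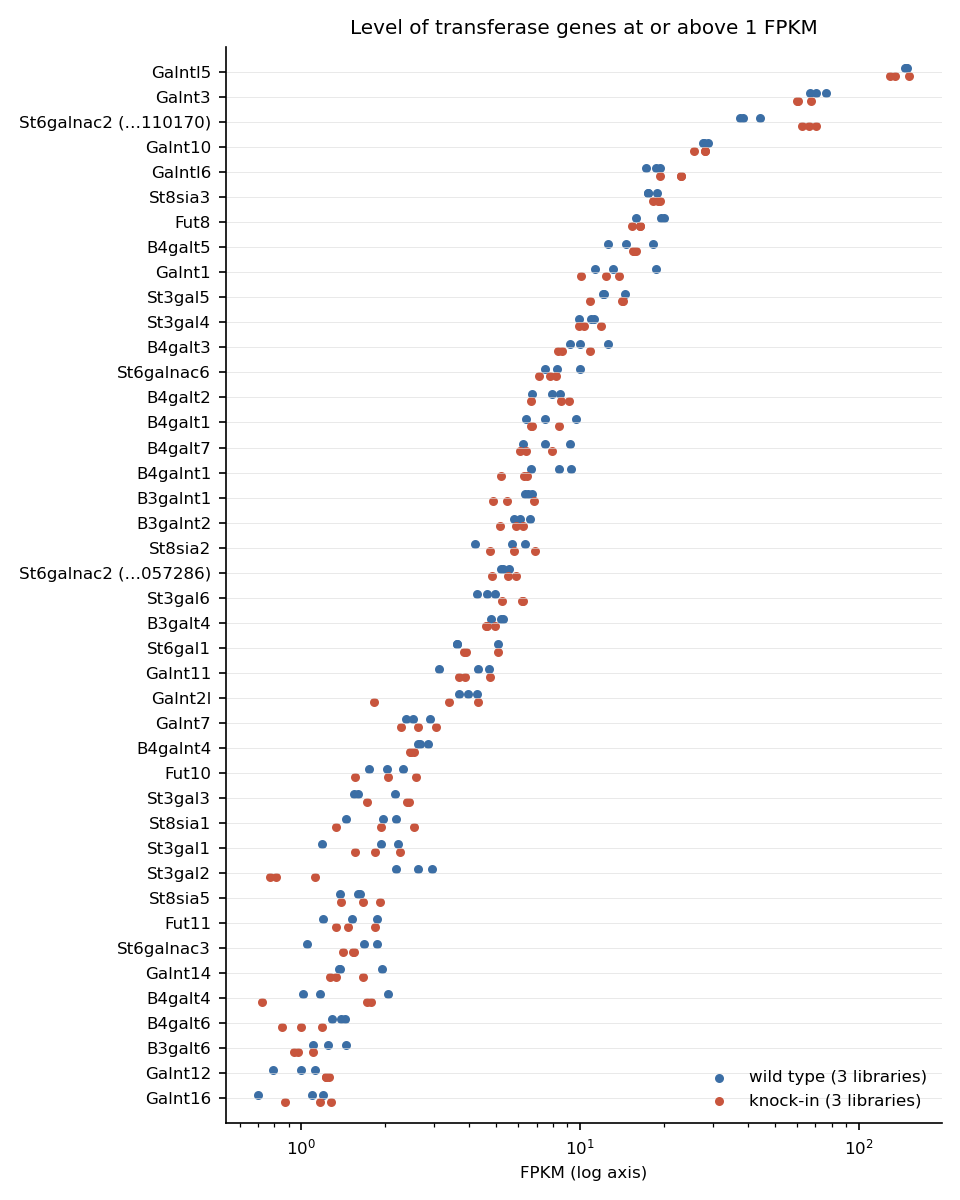
FPKM of the transferase rows at or above 1 FPKM on average, 1 point per library, on a log axis, ordered by the mean over the 6 libraries. Galntl5 lies above all others, St6galnac2 (ENSMUSG00000110170) shows its knock-in points to the right of the wild type, St3gal2 to the left, and most other rows mix.

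Galntl5 and Galnt11, another gene of the family, lie next to each other on chromosome 5, 2574 bp apart, but their levels differed widely. Galnt11 had 4.05 ± 0.830 FPKM in the wild type against 148 ± 1.03 for Galntl5. The 250 bases before a start listed by RefSeq for these 2 genes and for Galnt3, the next most abundant, are shown because they let the promoters of the genes with the highest levels be read beside that of a neighbour at a low level. They come from RefSeq (GRCm38.p6), 5′ to 3′ on the strand of the gene, at chr5:25181230-25181479 on the plus strand for Galntl5, chr2:66124794-66125043 on the minus strand for Galnt3 and chr5:25222622-25222871 on the plus strand for Galnt11. The listed start need not be the outer end of the gene: the Galnt3 window lies wholly inside the gene's RefSeq span, and 40 bases of the Galntl5 window do. Capitals mark a GC box (GGGCGG) or a cAMP response element (TGACGTCA), searched on both strands.
Galntl5: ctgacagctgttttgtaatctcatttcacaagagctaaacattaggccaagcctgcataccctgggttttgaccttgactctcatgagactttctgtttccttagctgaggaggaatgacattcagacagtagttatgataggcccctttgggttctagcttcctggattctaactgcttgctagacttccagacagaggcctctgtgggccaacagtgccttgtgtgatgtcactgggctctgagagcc
Galnt3: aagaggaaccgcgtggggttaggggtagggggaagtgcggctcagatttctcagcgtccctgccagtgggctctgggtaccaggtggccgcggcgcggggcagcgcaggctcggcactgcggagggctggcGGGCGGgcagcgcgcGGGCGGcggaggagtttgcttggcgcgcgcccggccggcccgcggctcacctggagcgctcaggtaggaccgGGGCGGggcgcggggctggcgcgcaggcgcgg
Galnt11: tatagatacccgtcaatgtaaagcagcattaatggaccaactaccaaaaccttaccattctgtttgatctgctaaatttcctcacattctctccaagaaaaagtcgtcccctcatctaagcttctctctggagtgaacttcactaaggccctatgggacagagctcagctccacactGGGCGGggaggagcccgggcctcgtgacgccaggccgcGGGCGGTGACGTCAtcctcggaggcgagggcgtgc
None of these windows held a TATA box (TATAAA). The Galntl5 window held none of the motifs searched and had 48.0% G and C. Galnt3 had 76.8% and 3 GC boxes, and Galnt11 54.0% with 2 GC boxes and 1 cAMP response element, where the second GC box and the element lie side by side. A second start is listed for Galnt11 inside the gene, and its window (chr5:25246123-25246372, plus strand) had 42.8% G and C and none of these motifs.

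Promoters were found for 47 of the member symbols, 62 windows in all, and not for St3gal2 or St6galnac2. The TATA box was in 1 of the 62, that of Galntl6, against 12.4% of the 32851 promoters of the same length in the table. The cAMP response element was in 2, those of B4galt3 and Galnt11, 3.23% against 1.55%. GC boxes were in 29 of the 62, 46.8% against 32.7%, and CCAAT in 19, 30.6% against 33.8%. The median share of G and C was 60.0% in member windows and 52.4% over all. These are counts of letters in the windows and show no binding.

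The rest of the Galnt family was lower in level, and no gene of it passed the test. Galnt10, a peptide transferase that prefers sites already glycosylated, had 28.1 ± 0.613 FPKM in wild-type and 27.3 ± 1.40 in knock-in libraries (log2 fold change -0.03 ± 0.07 SE, 95% interval -0.18 to 0.13). Galnt1, a widely expressed member that starts O-glycans, had 14.4 ± 3.90 and 12.1 ± 1.87 FPKM (-0.01 ± 0.10). Galntl6, a little studied relative, held 752, 759 and 636 counts against 918, 770 and 1042. Scaled to depth its groups overlapped, and it did not pass (0.25 ± 0.10; edgeR, adjusted p = 0.342). Galnt12 was the one gene of the family whose libraries did not overlap, with every knock-in library higher once scaled to depth, at 62, 52 and 41 counts against 69, 69 and 78 (0.38 ± 0.20; edgeR, adjusted p = 0.484). Galnt6, Galnt9 and Galnt18 had fold changes of similar size on the log2 scale, 0.34 ± 0.19, 0.37 ± 0.31 and 0.40 ± 0.29, with overlapping groups. Galnt4 had -0.26 ± 0.17, and Galnt7, Galnt11, Galnt13, Galnt14, Galnt15, Galnt16 and Galnt17 lay between -0.13 and 0.17. Of 20 rows 19 were tested and 0 called. Log2 fold changes lay above 0 in 11 and below in 8, with a median of 0.09 and a range of -0.32 to 1.13.

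Both ends of that range came from Galnt2 and Galnt2l, a pair of related names. Galnt2, which starts O-glycans on many secreted proteins, held 24, 48 and 24 counts in wild-type and 167, 0 and 50 in knock-in libraries. Galnt2l held 381, 403 and 329 against 173, 416 and 371. Knock-in library 1 was thus high in the first and low in the second, and knock-in library 2 had 0 in the first. Galnt2 took 5.93%, 10.6% and 6.799% of the counts of the pair in wild-type and 49.1%, 0% and 11.9% in knock-in libraries. Summed, the pair held 405, 451 and 353 counts against 340, 416 and 421, or 21.98 ± 1.87 CPM against 19.999 ± 1.41 (log2 fold change -0.14 ± 0.10 SE; edgeR, adjusted p = 0.649). Single values of either row are therefore uncertain. For Galnt2 the log2 fold change was 1.13 ± 0.95, and it turned to -0.54 without knock-in library 1. RefSeq places Galnt2 at chr8:124231394-124345722 and the tables used here give no position for Galnt2l as a gene. A circular RNA listed under Galnt2l lies at chr8:121907401-121908541, 2.32 Mb from Galnt2.

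B4galt enzymes add galactose in beta-1,4 linkage, and B4galnt enzymes N-acetylgalactosamine. B4galt1, the main one for N-glycans and also known from the sperm surface, held 620, 917 and 674 counts in wild-type and 642, 820 and 735 in knock-in libraries, and the groups overlapped (log2 fold change -0.10 ± 0.13 SE). B4galt5, which makes lactosylceramide, the base of most gangliosides, had 581, 592 and 536 counts against 607, 658 and 744. In CPM every knock-in library lay above the wild type, 34.1 ± 0.816 against 31.1 ± 0.641 (SD over 3 libraries each), and the gene did not pass (0.13 ± 0.07; edgeR, adjusted p = 0.511). In FPKM the B4galt5 groups overlapped. B4galt3 and B4galt2, further beta-1,4-galactosyltransferases of glycoproteins, had -0.00 ± 0.10 and 0.12 ± 0.10.

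B4galnt1 makes the gangliosides GM2 and GD2, and male mice without it are known to be sterile. It held 487, 532 and 361 counts in wild-type and 360, 375 and 344 in knock-in libraries, 25.1 ± 4.01 and 18.5 ± 1.98 CPM. Every knock-in library lay below the wild type, but the log2 fold change of -0.44 ± 0.14 (SE, 95% interval -0.74 to -0.14) did not pass (edgeR, adjusted p = 0.193). B4galnt3, which makes the LacdiNAc unit, was low, with 51, 22 and 47 counts against 104, 79 and 74. Its libraries did not overlap and the log2 fold change was 1.00 ± 0.32, which did not pass either (edgeR, adjusted p = 0.221). For B4galnt3 it fell to 0.47 ± 0.25 (SE, edgeR adjusted p = 0.467) without both libraries that held Crisp1. B4galt6, the other gene for lactosylceramide, held 182, 198 and 182 counts against 139, 121 and 191. Scaled to depth every knock-in library was lower, and the gene did not pass (-0.42 ± 0.15; edgeR, adjusted p = 0.274). B4galnt4, which like B4galnt3 makes LacdiNAc, had -0.11 ± 0.11, B4galnt2, of the Sda antigen, 0.34 ± 0.32, and B4galt4 0.05 ± 0.31. B4galt7, of the proteoglycan linker, had 0.10 ± 0.18. Of the 11 members of this family 11 were tested and 0 called. In CPM 5 had libraries that did not overlap, 2 higher and 3 lower in the knock-in, 45.5% against 18.5% of all tested genes.

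B3galt and B3galnt genes, for beta-1,3-linked galactose and N-acetylgalactosamine, had 5 of 7 members tested. None was called and all 5 had log2 fold changes below 0, from -0.33 to -0.02, under each scaling of the counts tried. B3galnt2 came to lie above 0 without wild-type library 2. B3galnt1, which makes the glycolipid globoside, had 6.34, 6.71 and 6.52 FPKM in wild-type and 5.47, 6.86 and 4.87 in knock-in libraries, and the groups overlapped (log2 fold change -0.18 ± 0.13 SE). B3galnt2, which acts on the O-mannose glycan of dystroglycan, had 6.17 ± 0.433 and 5.78 ± 0.547 FPKM (-0.03 ± 0.09). B3galt4, which makes the ganglioside GM1, had 5.11 ± 0.269 and 4.73 ± 0.188 FPKM (-0.10 ± 0.12). B3galt6, of the proteoglycan linker, had -0.33 ± 0.18. B3galt1, a galactosyltransferase of type 1 chains, had -0.02 ± 0.23 from its counts, whose groups overlapped, but its deposited FPKM were 0.31, 0.40 and 0.43 in wild-type and 0.47, 0.49 and 0.53 in knock-in libraries, every knock-in library being higher. The direction for B3galt1 thus depends on the scale.

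Fucosyltransferases were led by Fut8, which adds the core fucose of N-glycans, with 15.93, 20.09 and 19.52 FPKM in wild-type and 15.33, 16.37 and 16.38 in knock-in libraries. On the FPKM scale the groups overlapped, and in CPM every knock-in library lay lower, 57.1 ± 2.34 against 65.4 ± 5.41. The log2 fold change of -0.20 ± 0.08 (SE, 95% interval -0.37 to -0.02) did not pass (edgeR, adjusted p = 0.326). Fut10 and Fut11, members of the family expressed in many tissues, had -0.10 ± 0.15 and 0.02 ± 0.18. Fut2, which makes the H antigen of secretions, was low, with 12, 14 and 11 counts against 6, 10 and 9 (-0.66 ± 0.38; edgeR, adjusted p = 0.521). Fut4, an alpha-1,3-fucosyltransferase that makes Lewis X, had 26, 52 and 35 counts against 24, 25 and 34, and the groups overlapped (-0.54 ± 0.30; edgeR, adjusted p = 0.497). Of 8 genes 5 were tested and 0 called. Fut1, Fut7 and Fut9, of the blood group and Lewis antigens, held 3 or 4 counts each over the 6 libraries.

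Ordered by pathway, 14 of the rows act in ganglioside synthesis, from lactosylceramide (B4galt5 and B4galt6) through GM3 (St3gal5), GD3 (St8sia1), GM2 (B4galnt1) and GM1 (B3galt4) to the terminal sialylated forms. Of these 13 were tested, and St3gal2 was the single one called. Log2 fold changes lay above 0 in 5 and below in 8, with a median of -0.08. In CPM the libraries did not overlap for 4: B4galt5 higher, B4galt6, B4galnt1 and St3gal2 lower. That is 30.8%, against 18.5% of all tested genes. Their summed FPKM was 63.0 ± 6.42 in wild-type and 58.8 ± 3.20 in knock-in libraries (SD over 3 libraries each), with overlapping libraries.

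Genes that supply, extend or read the same chains were counted from 8 lists. Of 176 such genes 150 were tested and 1 passed, 0.667%, near the 0.982% of the whole table. Log2 fold changes lay above 0 in 58 and below in 92, with a median of -0.04. In CPM the libraries did not overlap for 27 of the 150, 18.0%, against 18.5% of all tested genes. The knock-in was the higher in 7 of these and the lower in 20, where the shares over all tested genes were 10.1% and 8.41%. Summed over the 176 genes, FPKM ran from 2025 to 2042 in wild-type and from 1926 to 1990 in knock-in libraries. Nucleotide sugar synthesis and Golgi import had 0 of 32 called (median -0.02), O-glycan core extension 0 of 10 (-0.18), and N-glycan processing and branching 0 of 19 (-0.12). Glycolipid synthesis had 0 of 13 called (-0.14), protein O-fucose, O-mannose and proteoglycan linkers 0 of 31 (0.00), glycosidases 0 of 17 (-0.01), and the conserved oligomeric Golgi complex, a tether of Golgi vesicles, 0 of 8 (-0.08). In the N-glycan list 16 of the 19 lay below 0 and in the glycolipid list 11 of the 13, none of which passed. The most abundant genes of these lists had small differences as well. Man1b1, a mannosidase that trims N-glycans, had a log2 fold change of -0.15 ± 0.08 (SE), B3gnt4, which extends chains with N-acetylglucosamine, 0.03 ± 0.19, and Cog6, a subunit of the Golgi complex, -0.09 ± 0.07. Mpi, which makes mannose phosphate, had -0.03 ± 0.07, Pomt1, which starts O-mannose chains, -0.02 ± 0.07, and the lysosomal Hexa -0.14 ± 0.05. Cers3, the ceramide synthase of very long chains, had -0.23 ± 0.06 (edgeR, adjusted p = 0.117).

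The gene that passed was Lgals1, for galectin-1, a lectin that binds beta-galactosides, in a list of lectins and sialic acid receptors with 20 tested members. It held 15.45, 13.25 and 12.76 FPKM in wild-type and 20.31, 22.54 and 22.74 in knock-in libraries, every knock-in library being higher. The log2 fold change was 0.65 ± 0.12 (SE; edgeR, adjusted p = 0.0440), and the call was kept in 1 of the 6 fits without 1 library, that without wild-type library 1, and in 7 of the 15 alternatives in all. Without both libraries that held Crisp1 it had 0.64 ± 0.15 (SE; edgeR, adjusted p = 0.153). The list had 14 members above 0 and 6 below, with a median of 0.06.

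**Figure D4:**
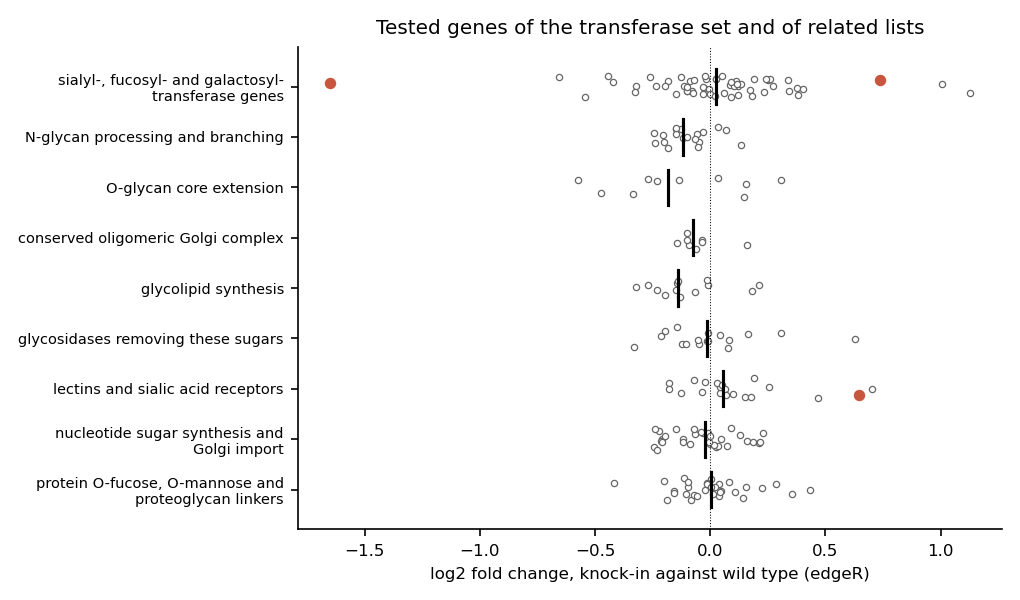
Log2 fold change of each tested gene, knock-in against wild type, for the transferase set and 8 related lists, with a vertical bar at the median and filled points for genes at an adjusted p under 0.05. The filled points are St3gal2, the St6galnac2 row and Lgals1, and the medians lie between -0.18 and 0.06.

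Markers of other testis cells were read beside these results. All 10 peritubular myoid genes had log2 fold changes above 0 (median 0.31), their summed FPKM ran from 313 to 334 in wild-type and from 342 to 357 in knock-in libraries, and none of them was called. Of 10 elongating spermatid genes 2 were called higher, the protamine gene Prm2 and Smcp, against 0.88% of all tested genes, and their summed FPKM overlapped. Prm1, the most abundant of the 10, had a log2 fold change of -0.31 (edgeR, adjusted p = 0.303). Summed spermatogonial markers ran from 292 to 310 in wild-type and from 324 to 339 in knock-in libraries, a sum made up mostly of Dmrtb1 (263 and 293 FPKM on average). Of the 9 tested, 5 lay above 0 and 4 below, among them Stra8 at -0.29 with every knock-in library lower. Summed pachytene spermatocyte markers ran from 3790 to 3902 and from 3488 to 3784, and most of the sum was Ldhc (2505 and 2228 FPKM on average). Of these 10 genes 7 lay above 0 (median 0.09). In 4 of the 10, 40.0%, every knock-in library was higher and in none was every one lower, against 10.1% and 8.41% of all tested genes. Sums for round spermatids, Sertoli cells, Leydig cells, macrophages, and endothelium and connective tissue overlapped between the genotypes. The part of any of these in the differences of St6galnac2, St3gal2 and Lgals1 was not tested.

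Noncoding transcripts of the same genes gave another readout. The noncoding table held 55 transcripts of 32 member genes, 29 of them above 0, and 11 were tested. By edgeR and by DESeq2 0 were called, against 0.0968% of that table by edgeR. An unadjusted p under 0.05 by edgeR was found for 3 of the 11, and the share over that table was not counted. These were ENSMUST00000155453 of Galnt3, lower in the knock-in, and ENSMUST00000135771 of St6galnac2 and ENSMUST00000145283 of St3gal6, higher in it. The most abundant, ENSMUST00000155453 of Galnt3, held 582, 551 and 579 counts in wild-type and 521, 508 and 575 in knock-in libraries (log2 fold change -0.18 ± 0.08 SE; edgeR, adjusted p = 0.557). ENSMUST00000139622 of St8sia3 held 502, 489 and 504 against 489, 516 and 593 (0.01 ± 0.08), and ENSMUST00000219299 of Fut8 59, 146 and 152 against 130, 86 and 122. The groups overlapped in both. Such transcripts can overlap the coding gene, and reads common to both cannot be assigned from these tables.

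Circular RNAs came from 9 member genes, 18 circles with 179 counts in all libraries together. Of these 10 were tested, with 0 called by edgeR or DESeq2 and 0 at an unadjusted p under 0.05 by edgeR, as 0.0% of the whole circular table was called. Fut8 gave 7 of the circles and 126 of the counts, 22, 21 and 20 in wild-type and 12, 19 and 32 in knock-in libraries. The most abundant spans chr12:77393723-77412949 within Fut8 (mm10) and held 4, 4 and 9 counts against 3, 9 and 8. The next most abundant were also Fut8 circles, at chr12:77277361-77332329 with 3, 3 and 5 counts against 4, 2 and 7, and at chr12:77277361-77365359 with 4, 2 and 2 against 3, 2 and 6.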

How the data were processed

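The labels state that testis was frozen, that RNA was isolated with Trizol, and that a stranded kit for total RNA was used. The authors deposited whole-number counts per gene, noncoding transcript and circular RNA, FPKM for the linear RNAs and RPM for the circles, per the file headers. Their tables also hold the authors' means (a signal for the circles), log2 ratios, p-values and adjusted p-values. The submitters' processing notes give mm10 as the build. The sources used here do not give the aligner, the counter, the use of strand or the treatment of shared reads, so reads of overlapping or antisense genes cannot be told apart. The 12 samples of purified germ cells were not analysed here.

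Each whole table of deposited counts was fitted on genotype with edgeR 4.0.16 (R 4.3.3, limma 3.58.1), using its quasi-likelihood test after TMM scaling. The filter was filterByExpr for the linear RNAs, with a minimum count of 10 and a minimum total of 15, and at least 3 libraries above 0 for circles. Two-sided p-values were adjusted by Benjamini-Hochberg over each table and called under 0.05. CPM are TMM-scaled, and levels are compared between genes as FPKM only. The implied length of a row is its count divided by its FPKM and by the library total. Standard errors come from the F statistic. The fit was tested on simulated counts. Alternatives were DESeq2 1.42.0, other scalings and filters, limma on log2(FPKM + 0.1) and log2(FPKM + 1), a length correction, a replicate block and leaving out each library. Summing rows that may share reads and leaving out both libraries with Crisp1 counts above 10 were added after seeing the data. Positions and promoters are from RefSeq (GRCm38.p6), where 65 of the 66 symbols matched.

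Named with values are the called members, the 3 most abundant of each family, the 5 with the largest fitted change, B4galt1, Galntl5, Galnt3, St3gal5, B4galnt1, Fut8 and St6gal1. The rule adds called genes of the pathway lists or else their most abundant gene, the 3 most abundant noncoding transcripts and circles, and neighbours of called members. Other members and noncoding transcripts named were chosen after their values were seen. The members and lists were chosen with earlier results of these data known.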

Additional observations from a re-analysis of the deposited data

How the results depend on the processing

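Over 15 alternatives the number of genes called in the table, 155, became 456 by DESeq2, 251 and 263 by limma on log2(FPKM + 0.1) and log2(FPKM + 1), 83 with the length trend removed, and 13 to 147 when 1 library was left out. Leaving out a wild-type library gave 76, 30 and 24 calls for libraries 1, 2 and 3, and leaving out knock-in library 3 gave 13. The number was within 1.5 times of 155 under the other scalings and filters and the replicate block. In these fits the number of called transferase genes stayed at 2 except with the replicate block, which gave 1 (St3gal2 was lost, adjusted p = 0.0550), and in fits without 1 library, which gave 1 to 2. Same-numbered libraries had correlations of 0.137, 0.077 and 0.032 in their deviations from the group means, not all above 0.1, and wild-type library 3 correlated better with knock-in library 2, so the numbers were not taken to pair the libraries. Pathway genes called, 1, were 0 with upper-quartile scaling, 0 with the replicate block, 2 by DESeq2 (Cers3, lower, besides Lgals1) and 0 to 1 without 1 library. Cers3 was called in 2 of the 15 alternatives and Lgals1 in 7, so a count of 1 need not be Lgals1. Noncoding transcripts and circles stayed at 0 under each alternative run. The cause of these shifts was not tested.

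Of the 28 named members with a test, 26 were not called and none of those was called under any alternative, but 10 changed sign in at least 1. Log2 fold changes without 1 library ran, for those that crossed 0, as follows: Galnt10 -0.070 to 0.033, St3gal5 -0.061 to 0.13, B4galt3 -0.072 to 0.033, B4galt1 -0.22 to 0.053, B3galnt2 -0.072 to 0.0065, St6gal1 -0.10 to 0.17, Fut11 -0.12 to 0.17 and Galnt2 -0.54 to 1.71. Outside the set these ranges were B3gnt4 -0.13 to 0.23, Mpi -0.075 to 0.019, Pomt1 -0.054 to 0.024, Prcd -0.053 to 0.23, Fcsk -0.13 to 0.018 and Ddx19a -0.072 to 0.11, and for the noncoding transcripts St8sia3 ENSMUST00000139622 -0.013 to 0.041 and Fut8 ENSMUST00000219299 -0.51 to 0.068. With limma on log2(FPKM + 0.1), with or without a filter, and on log2(FPKM + 1), Fut10 had 0.0035 and 0.0065, St8sia1 0.024 and 0.022, and B3gnt4 -0.0060 with the pseudocount of 0.1. On these scales the fold of low genes is understated, and that of St3gal2 was -0.92 with the pseudocount of 1. With the rows that may share reads summed, chosen after seeing the data, 2 transferase genes were called. With both libraries that held Crisp1 left out, also chosen after seeing the data, 30 genes, 0 transferase genes and 0 pathway genes were called. Depth limits rows with few counts, such as Fut2 with 6 to 14 in a library.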
